A study of Mus musculus with 42 samples.

Results

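The genes described here encode the muscle acetylcholine receptor and the proteins that gather it under the nerve ending. They were chosen by name, and all 10 (Chrna1, Chrnb1, Chrnd, Chrng, Chrne, Agrn, Lrp4, Musk, Dok7 and Rapsn) were found among the 24466 gene symbols counted by RNA-seq. The study compared mouse cells in 3 states. The iPax7 cells are muscle precursors made from 1 embryonic stem cell line that carries a doxycycline-inducible Pax7 gene, and they were purified from embryoid bodies as PDGFRα+ Flk-1- cells. The +Dox group (n = 3 libraries) was kept in 0.75 µg/ml doxycycline, as the treatment label gives it, so that Pax7 was expressed. The -Dox 3d group (n = 2) was the same line grown without doxycycline for 3 days, with FGF still present. The satellite cells (n = 3) are muscle stem cells sorted from mice that carry a Pax7-ZsGreen reporter, and they were not cultured. ATAC-seq, a measure of open chromatin, also covered 12 h and 24 h after doxycycline removal and myotubes made from iPax7 cells, and ChIP-seq measured Pax7 and 4 histone marks. The replicate libraries of each RNA-seq group belong to 1 sample record, and nothing in the labels says that they came from separate cultures or animals. The p-values below therefore measure the spread between libraries, which may be technical.

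At the neuromuscular junction, acetylcholine released by the motor nerve opens a ligand-gated channel built from α1, β1 and δ subunits together with either a γ or an ε subunit. The γ subunit belongs to the fetal receptor and the ε subunit to the adult one, and the exchange takes place around and after birth, mainly in the muscle nuclei below the synapse. Receptors are clustered by a signalling chain: nerve-derived agrin binds Lrp4, Lrp4 activates the receptor tyrosine kinase MuSK, Dok-7 binds MuSK inside the cell and amplifies its activity, and rapsyn ties the receptors to the cytoskeleton. Before innervation the receptor genes are switched on throughout the fibre as myoblasts differentiate, through E-boxes bound by MyoD-family factors, whereas the ε gene carries an N-box bound by ETS factors.

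Promoter sequences are shown for the pair of genes exchanged in the receptor (Chrng and Chrne), for Chrna1, whose start site was open in all states, and for Musk, whose start site was open in satellite cells. Each is the 250 bases before the start site in RefSeq, read 5′ to 3′ on the gene's strand, and each matched NCBIM37 at 1 place. Capitals mark every E-box (CANNTG) and every N-box (CCGGAA, searched on both strands). Of 32851 RefSeq promoters of this length, 66.2% hold CANNTG, 13.0% hold its form CAGCTG, 17.2% hold its form CAGGTG and 12.0% hold CCGGAA. The sequences are from the RefSeq promoter table on GRCm38.p6, and the positions printed are those of the match in NCBIM37.
Chrng, chr1:89102136-89102385 on the plus strand: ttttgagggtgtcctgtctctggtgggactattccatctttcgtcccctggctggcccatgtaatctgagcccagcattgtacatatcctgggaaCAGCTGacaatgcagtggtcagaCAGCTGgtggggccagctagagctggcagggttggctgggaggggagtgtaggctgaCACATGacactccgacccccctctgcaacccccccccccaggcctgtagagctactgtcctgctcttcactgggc
Chrne, chr11:70432697-70432946 on the minus strand: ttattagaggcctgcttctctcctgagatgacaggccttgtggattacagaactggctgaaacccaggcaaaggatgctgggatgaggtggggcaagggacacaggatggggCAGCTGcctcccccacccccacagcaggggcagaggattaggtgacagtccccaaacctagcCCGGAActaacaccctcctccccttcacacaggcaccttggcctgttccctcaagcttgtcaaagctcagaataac
Chrna1, chr2:73418396-73418645 on the minus strand: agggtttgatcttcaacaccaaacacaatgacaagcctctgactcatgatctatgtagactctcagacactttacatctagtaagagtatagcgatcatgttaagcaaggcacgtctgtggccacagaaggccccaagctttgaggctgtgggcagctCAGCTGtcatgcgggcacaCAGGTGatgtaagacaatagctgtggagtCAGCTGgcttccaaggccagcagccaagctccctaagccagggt
Musk, chr4:58298584-58298833 on the plus strand: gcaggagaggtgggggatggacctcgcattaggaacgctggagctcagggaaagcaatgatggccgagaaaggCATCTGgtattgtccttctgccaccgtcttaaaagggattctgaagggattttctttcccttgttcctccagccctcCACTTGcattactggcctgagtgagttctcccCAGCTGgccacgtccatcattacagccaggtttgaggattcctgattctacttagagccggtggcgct

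The Chrng window held 3 E-boxes, at 155, 132 and 75 bases before the start, and the first pair read CAGCTG. The Chrna1 window held 3 as well, at 92, 73 and 44 bases, with CAGCTG at both ends and CAGGTG between them. The Chrne window held a single E-box, CAGCTG at 138 bases, and the only N-box among the promoters of these genes in the table, at 76 bases. In Musk the E-boxes lay 177, 100 and 68 bases before the start, and the nearest one read CAGCTG. The table also held windows for Chrnb1, with 3 E-boxes, and for Dok7 and Agrn, with at most 1 in each of their windows. Chrnd, Rapsn and Lrp4 were not among its entries. A match of letters is a description and does not show that a factor binds there.

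Libraries held between 39010958 and 54674619 reads on genes. Reads set aside because they mapped to several places made up 7.11% to 7.6% of the iPax7 libraries and 23.6% to 30.7% of the satellite cell libraries. Pax7 itself, the induced gene, averaged 12833 normalized counts with doxycycline (SD 1261, n = 3), 245 after 3 days without it (SD 34.6, n = 2) and 5962 in satellite cells (SD 2331, n = 3). All 9 myofibre markers tested, among them the actin gene Acta1 and the embryonic myosin gene Myh3, rose in -Dox 3d over +Dox. Their summed level ran from 3135 to 3329 normalized counts in +Dox, from 1485402 to 1531443 in -Dox 3d and from 5895 to 12470 in satellite cells. The satellite cell libraries also held reads of other cell types. Summed levels there were 11381 to 18324 for 4 endothelial markers (at most 165.7 in any iPax7 library), 2082 to 9344 for 4 blood cell markers (at most 464) and 19719 to 29958 for 4 fibro-adipogenic markers (at most 9742). All 4 genes of each of these 3 lists had over 3 reads in a satellite cell library. The motor neuron genes Chat and Slc5a7 were at 0 in every library. Of these markers, 4 of 4 endothelial, 3 of 4 blood cell and 3 of 4 fibro-adipogenic ones were lower in +Dox than in satellite cells by edgeR. In -Dox 3d 4, 4 and 3 were lower. Of all genes tested, 23.9% were lower in +Dox and 20.4% in -Dox 3d. Ly6a, in the fibro-adipogenic list, passed in neither comparison and averaged 5063 normalized counts in +Dox against 2623 in satellite cells. The part of other cell types in the differences from satellite cells given below was not tested. In bulk samples, fewer cells of a type and less RNA per cell cannot be told apart.

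The fetal subunit gene Chrng, Chrna1, Musk and Rapsn were higher 3 days after doxycycline withdrawal than before it. Of the 10 genes, 9 passed the filter on low counts; Chrne did not. These 4 of the 9 tested genes rose, beside 4.63% of all 14836 genes tested. None fell by edgeR's quasi-likelihood test, by DESeq2, or at an unadjusted p under 0.05 in either (0 of 9), beside 3.01% of all genes. The 9 genes had a median log2 fold change of 2.23, against -0.0049 for all genes tested. A gene was counted as changed at an adjusted p under 0.05 and a change of at least 2-fold, and the adjusted p-values below come from edgeR's quasi-likelihood fit, with the Benjamini-Hochberg procedure applied over all genes tested. Values are normalized counts, which are reads scaled to a common library size, and fold changes are those of the fit with their standard errors (SE).

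**Figure D1:**
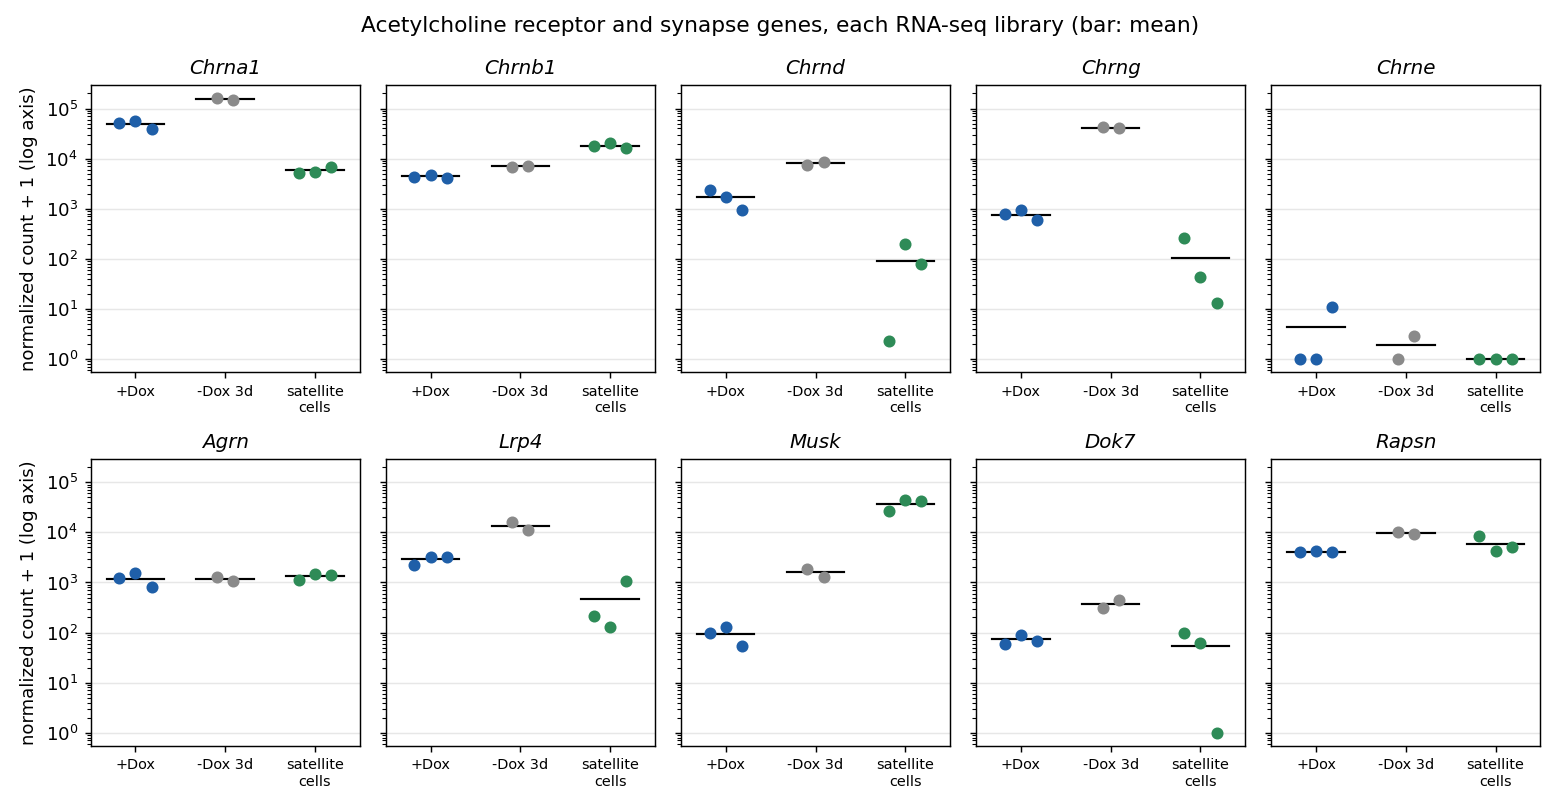
Normalized count plus 1 (log axis) of each gene in each RNA-seq library, in +Dox (3 libraries), -Dox 3d (2) and satellite cells (3), with a bar at the mean of each group. Chrng stands highest in -Dox 3d, Musk highest in satellite cells, Chrne near the floor of all panels and Agrn at a like level in every group.

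Chrna1 (chr2:73401272-73418395 of NCBIM37, minus strand), the subunit that carries the main part of the acetylcholine binding site, had 52455, 55093 and 39462 normalized counts in +Dox and 162356 and 146883 in -Dox 3d. It had 5275, 5395 and 6906 in satellite cells. The 3 groups did not overlap. Chrna1 rose 3.16-fold after doxycycline withdrawal (log2 1.66, SE 0.247, adjusted p = 0.00347 by edgeR). The +Dox cells already held 8.36 times the satellite cell level (log2 3.06, SE 0.242, adjusted p = 2.57e-05 by edgeR), and -Dox 3d cells 26.4 times it (log2 4.72, SE 0.270, adjusted p = 9.64e-06 by edgeR).

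Chrnb1 (chr11:69597538-69609445, minus strand), the β1 subunit, ran the other way between the cell sources. It had 4364, 4733 and 4150 normalized counts in +Dox, 6835 and 7227 in -Dox 3d, and 17675, 20136 and 16306 in satellite cells, so that every satellite cell library lay above every iPax7 library. It was 4.09-fold lower in +Dox than in satellite cells (log2 -2.03, SE 0.212, adjusted p = 0.000106 by edgeR) and 2.57-fold lower in -Dox 3d than in satellite cells (log2 -1.36, SE 0.239, adjusted p = 0.00198 by edgeR). Both -Dox 3d libraries were above the 3 +Dox libraries, but the difference of 0.67 (log2, SE 0.225) did not pass the test (adjusted p = 0.11 by edgeR). When only those 2 groups were fitted the adjusted p was 0.0537 by edgeR. By DESeq2 it was 0.014, at a log2 difference of 0.71, which is under 2-fold.

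Chrnd (chr1:89087227-89096644, plus strand), the δ subunit, had 2398, 1732 and 957 normalized counts in +Dox and 7495 and 8531 in -Dox 3d. In satellite cells it had 1.32, 194 and 76.5, the lowest of which is 1 read. The groups did not overlap. The difference between -Dox 3d and +Dox was 2.24 (log2, SE 0.972) and did not pass the test (adjusted p = 0.219 by edgeR). When only those 2 groups were fitted the adjusted p was 0.00816, and without satellite cell replicate 1 it was 0.0228. Against satellite cells Chrnd was higher in +Dox (log2 4.22, SE 1.01, adjusted p = 0.00824 by edgeR) and in -Dox 3d (log2 6.46, SE 1.14, adjusted p = 0.00204 by edgeR). Without satellite cell replicate 2 these became 5.44 and 7.68.

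Chrng (chr1:89102386-89108410, plus strand), the fetal γ subunit, lies next to Chrnd on the same strand. It had 766, 930 and 590 normalized counts in +Dox, 42842 and 40454 in -Dox 3d, and 259, 42.9 and 11.9 in satellite cells. The groups did not overlap, and the 2 -Dox 3d libraries stood above all others by more than an order of magnitude. Chrng rose 54.6-fold after doxycycline withdrawal (log2 5.77, SE 0.944, adjusted p = 0.00565 by edgeR), the largest change among these genes in that comparison. Against satellite cells it was 397-fold higher in -Dox 3d (log2 8.63, SE 1.07, adjusted p = 0.000335 by edgeR) and 7.27-fold higher in +Dox (log2 2.86, SE 0.821, adjusted p = 0.019 by edgeR). These last differences rest on few reads in satellite cells, namely 197, 32 and 9. Without satellite cell replicate 1 they became 10.56 and 4.79 on the log2 scale. Without satellite cell replicate 2 the +Dox difference was 2.49 and no longer passed (adjusted p = 0.0605 by edgeR).

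Chrne (chr11:70428385-70432718, minus strand), the adult ε subunit, was at or near 0 in every library. It had 11 reads in +Dox replicate 3, 2 reads in -Dox 3d replicate 2 and 0 in the other 6 libraries. A gene on the opposite strand, 4930544D05Rik, overlaps it, shares no exon bases with it and had 0 reads in every library. The exchange of γ for ε was followed as the share of ε in the reads of both genes. In -Dox 3d replicate 1 it was 0 of 46618 reads, with an exact (Clopper-Pearson) 95% interval up to 0.00791%, and in replicate 2 it was 0.00456% (0.00055% to 0.0165%). In +Dox it was 0 of 1020 reads (up to 0.361%), 0 of 1256 (up to 0.293%) and 1.67% of 659 reads (0.836% to 2.97%). In satellite cells it was 0 of 197, 32 and 9 reads, which allows shares of up to 1.86%, 10.9% and 33.6%, so that satellite cells could not show a small share of ε. The intervals cover counting error only, since sequenced reads are not independent molecules.

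The log2 ratio of Chrng to Chrne reads (1 added to each) averaged 14.67 in -Dox 3d, 8.68 in +Dox and 5.33 in satellite cells. The difference was 5.99 between -Dox 3d and +Dox, 9.34 between -Dox 3d and satellite cells, and 3.35 between +Dox and satellite cells. Two-sided exact permutation tests gave p = 0.1, 0.1 and 0.2, or 0.15, 0.15 and 0.2 after adjustment over the 3 comparisons, and with 2 or 3 libraries a group no p below 0.1 can be reached. With Chrne at or near 0 throughout, these ratios follow the Chrng count.

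Per kilobase of exon, the makeup of the receptor transcripts differed between the states. Chrna1 made up 78.7% ± 0.782 (SD, n = 3) of the summed level of the 5 subunits in +Dox, 56.1% ± 1.29 (SD, n = 2) in -Dox 3d and 13.8% ± 2.99 (SD, n = 3) in satellite cells. Chrnb1 made up 14.6% ± 1.78, 5.20% ± 0.453 and 85.4% ± 2.63 in the same order. Chrng made up 2.78% ± 0.242 in +Dox, 34.5% ± 0.250 in -Dox 3d and 0.564% ± 0.741 in satellite cells. Chrnd stayed at or below 5.20% in every library. For Chrna1, Chrnb1 and Chrng the ranges of the 3 groups did not overlap. On this per-kilobase scale the level of Chrna1 was 28.3 times that of Chrng in +Dox and 1.62 times that of Chrng in -Dox 3d.

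**Figure D2:**
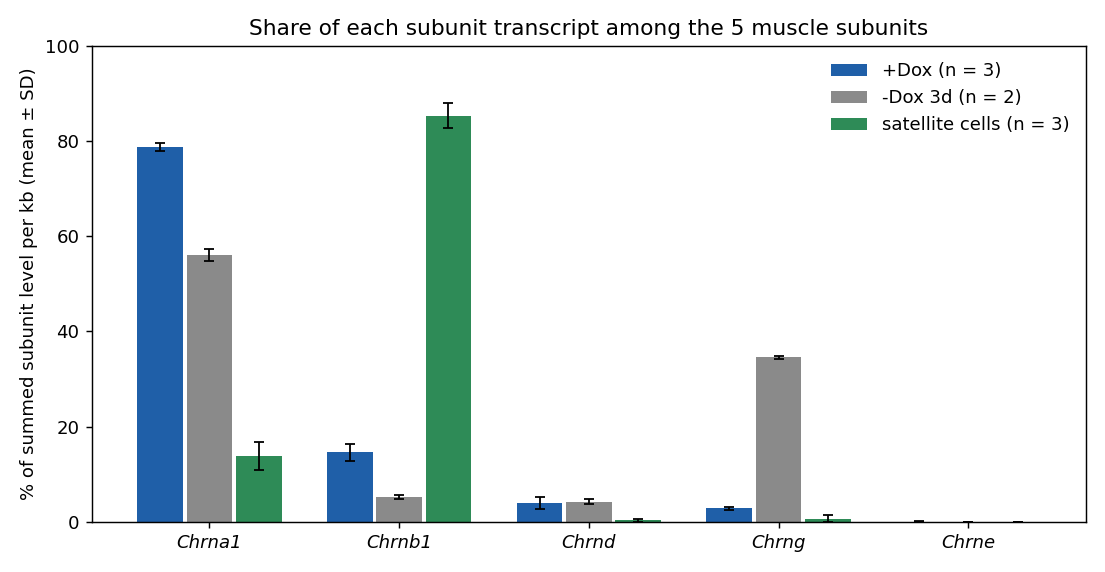
Share of each subunit transcript in the summed per-kilobase level of the 5 muscle subunits (percent, mean with SD error bars) in +Dox (n = 3), -Dox 3d (n = 2) and satellite cells (n = 3). Chrna1 is the largest share in both iPax7 groups, Chrnb1 in satellite cells (85.4%), and Chrng reaches 34.5% in -Dox 3d.

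In the clustering chain, Agrn (chr4:155539399-155571536, minus strand), the ligand, was level across the groups. It had 1202, 1558 and 822 normalized counts in +Dox, 1273 and 1063 in -Dox 3d, and 1102, 1450 and 1409 in satellite cells, and all 3 groups overlapped. Its differences were -0.03 (log2, SE 0.363) between -Dox 3d and +Dox, -0.14 (SE 0.325) between +Dox and satellite cells, and -0.18 (SE 0.365) between -Dox 3d and satellite cells, with adjusted p = 1, 0.746 and 0.728 by edgeR. Reads summed over the gene do not separate the nerve form of agrin, which activates MuSK, from the forms that muscle makes.

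Lrp4 (chr2:91297668-91354058, plus strand), the agrin receptor, had 2281, 3166 and 3214 normalized counts in +Dox and 15771 and 11266 in -Dox 3d. In satellite cells it had 217, 129 and 1082. The groups did not overlap. Lrp4 was higher than in satellite cells in +Dox (log2 2.60, SE 0.690, adjusted p = 0.0135 by edgeR) and in -Dox 3d (log2 4.83, SE 0.787, adjusted p = 0.00135 by edgeR). Without satellite cell replicate 3, its highest satellite cell library, these became 4.06 and 6.28. Between -Dox 3d and +Dox the difference of 2.23 (SE 0.722) did not pass the test (adjusted p = 0.0998 by edgeR). It passed by DESeq2 (adjusted p = 0.018), without satellite cell replicate 2 (0.0483) or 3 (0.00561), and when only those 2 groups were fitted (0.00171).

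Musk (chr4:58298834-58390290, plus strand), the receptor kinase, showed the widest range of the 10 genes between +Dox and satellite cells. It had 96.9, 127 and 53.7 normalized counts in +Dox, 1872 and 1290 in -Dox 3d, and 26275, 43646 and 42119 in satellite cells. None of the groups overlapped. Musk rose 17.0-fold after doxycycline withdrawal (log2 4.09, SE 0.405, adjusted p = 0.000362 by edgeR). It was nevertheless 23.6-fold lower in -Dox 3d than in satellite cells (log2 -4.56, SE 0.471, adjusted p = 0.000144 by edgeR) and 402-fold lower in +Dox (log2 -8.65, SE 0.476, adjusted p = 5.45e-06 by edgeR). These calls were kept when each of the 8 libraries was left out in turn.

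Dok7 (chr5:35399462-35430488, plus strand), the activator of MuSK inside the cell, was low. It had 59.3, 90.3 and 67.4 normalized counts in +Dox, 304 and 446 in -Dox 3d, and 96.1, 61.7 and 0 in satellite cells. Both -Dox 3d libraries lay above all others, while +Dox and satellite cells overlapped. No difference passed the test. It was 2.37 (log2, SE 1.35, adjusted p = 0.358 by edgeR) between -Dox 3d and +Dox, where the adjusted p was 0.0169 when only those 2 groups were fitted. Against satellite cells it was 2.83 in -Dox 3d (SE 1.36, adjusted p = 0.124 by edgeR) and 0.46 in +Dox (SE 1.22, adjusted p = 0.788 by edgeR). Without satellite cell replicate 3, the one with 0 reads, the -Dox 3d difference of 2.24 passed (adjusted p = 0.0443 by edgeR) and the +Dox difference was -0.13.

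Rapsn (chr2:90875777-90885886, plus strand), the scaffold that binds receptors, was present in all groups. It had 3996, 4295 and 4107 normalized counts in +Dox, 10143 and 9248 in -Dox 3d, and 8288, 4332 and 5206 in satellite cells. Both -Dox 3d libraries lay above all others, and the lowest satellite cell library lay just above the highest +Dox library. Rapsn rose 2.35-fold after doxycycline withdrawal (log2 1.23, SE 0.300, adjusted p = 0.0381 by edgeR). That call was lost when any 1 of the 5 iPax7 libraries was left out (adjusted p from 0.0721 to 0.242). The differences from satellite cells were -0.52 in +Dox (SE 0.273, adjusted p = 0.144 by edgeR) and 0.71 in -Dox 3d (SE 0.301, adjusted p = 0.0888 by edgeR), and the latter passed without satellite cell replicate 1 (log2 1.02, adjusted p = 0.00853 by edgeR). An annotated gene on the opposite strand, Gm13778, shares 4 exon bases with Rapsn.

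**Figure D3:**
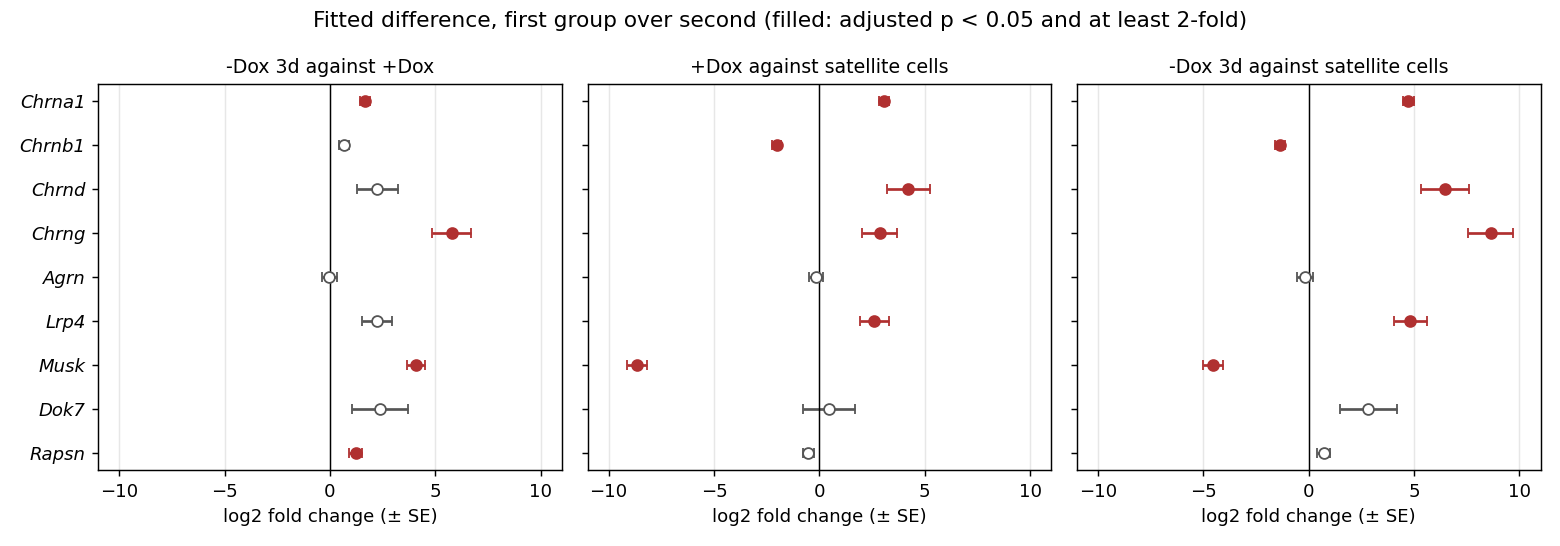
Fitted log2 fold change with its SE for the 9 genes tested, in -Dox 3d against +Dox, +Dox against satellite cells and -Dox 3d against satellite cells. Filled points passed an adjusted p under 0.05 and 2-fold, and Musk and Chrnb1 lie below 0 in both comparisons with satellite cells while Chrna1, Chrnd, Chrng and Lrp4 lie above it.

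Counted over both comparisons with satellite cells, 4 of 9 genes were higher in the iPax7 cells and 2 were lower in each, namely Chrna1, Chrnd, Chrng and Lrp4 against Chrnb1 and Musk. Of all genes tested, 18.2% were higher and 23.9% lower in +Dox than in satellite cells, and 17.2% were higher and 20.4% lower in -Dox 3d. The median log2 difference of the 9 genes was 0.46 in +Dox and 2.83 in -Dox 3d, against -0.17 and -0.23 for all genes tested. The comparisons share groups and are not independent of each other.

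Ordered by level per kilobase of exon, Chrna1 led in +Dox (11173 normalized counts per kb), followed by Rapsn (2540) and Chrnb1 (2049). Chrnd (558), Chrng (397) and Lrp4 (359) came next, with overlapping ranges, then Agrn (154), and Musk (26.8) and Dok7 (18.6), which overlapped, with Chrne (2.07) last. In -Dox 3d no neighbours in the order overlapped, and Chrng (21681) stood directly below Chrna1 (35253), above Rapsn (5959), Chrnb1 (3263), Chrnd (2637), Lrp4 (1680), Musk (456), Agrn (151), Dok7 (96.6) and Chrne (0.571). In satellite cells Musk (10781) and Chrnb1 (8371) led with overlapping ranges, above Rapsn (3652), Chrna1 (1336) and Agrn (171). The others there lay between 0 and 59.1 and overlapped their neighbours. On this scale the mean log2 ratio of Musk to its partner Lrp4 was -3.80 in +Dox (range -4.66 to -3.33), -1.88 in -Dox 3d (-1.91 to -1.86) and 8.08 in satellite cells (6.50 to 9.61), with no overlap of the groups.

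The genes whose log2 levels followed Chrng most closely over the 8 libraries were Cacng1 (Pearson's r = 0.992), a calcium channel subunit of skeletal muscle, and Foxred1 (0.988), Prune (0.986), Rmdn1 (0.986) and Stard7 (0.984). For Agrn they were Zfp407 (0.918), Hdx (0.910), Nol8 (0.901), Ctdspl2 (0.899) and Bzw1 (0.893). All of these values run over the same 8 libraries in 3 groups and are descriptions. Chrne, below the filter, had no such list.

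Other genes of the synapse were taken from lists of related genes. After doxycycline withdrawal, 5 of 8 tested genes of the response to denervation and electrical silence rose, beside 4.63% of all genes tested. They include Myog, a MyoD-family factor (42.2-fold, adjusted p = 7.75e-06 by edgeR), the adhesion molecule gene Ncam1 (17.3-fold, adjusted p = 3.04e-05), the muscle sodium channel gene Scn4a (108-fold, adjusted p = 0.0318) and the transcription factor gene Runx1 (3.97-fold, adjusted p = 0.0108). The median log2 fold change of the list was 2.66. Of 9 genes of the dystrophin-associated cytoskeleton below the receptors, 3 rose: Dmd, which encodes dystrophin (12.1-fold, adjusted p = 0.000347), the intermediate filament gene Nes (5.36-fold, adjusted p = 0.00318) and Dag1, which encodes dystroglycan (2.87-fold, adjusted p = 0.0289), with a list median of 2.11. By DESeq2, 6 of the 9 rose, and 6 were higher at an unadjusted p under 0.05 by edgeR. Of 16 partners of MuSK signalling, 2 rose, the kinase gene Fyn (5.88-fold, adjusted p = 0.00621) and the cytoskeletal linker gene Macf1 (3.84-fold, adjusted p = 0.00568), with a list median of 0.14. No gene of these 3 lists fell, either by DESeq2 or by edgeR, nor at an unadjusted p under 0.05 in either (0).

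None of the 11 genes of the synaptic basal lamina and acetylcholinesterase list changed after doxycycline withdrawal by edgeR or by DESeq2. At an unadjusted p under 0.05, 2 were higher by edgeR and 1 by DESeq2. Their median log2 fold change was 0.091. Within it Colq, the collagen tail that anchors acetylcholinesterase, was at 0 in every +Dox library and averaged 449 ± 3.15 (SD, n = 2) normalized counts in -Dox 3d. That difference (log2 11.85, SE 2.91) did not pass the test (adjusted p = 0.052 by edgeR). Of 6 tested genes of neuregulin and ErbB signalling, which acts on transcription at the synapse, 0 were called by edgeR (1 higher and 2 lower at an unadjusted p under 0.05) and 3 by DESeq2 (1 higher, 2 lower), with a list median of -0.23. Of 5 glycosylation enzymes mutated in congenital myasthenia, 0 were called by edgeR or by DESeq2 (1 higher at an unadjusted p under 0.05 in each), with a list median of 0.12. The 11 neuronal nicotinic subunits had at most 54 reads in any library, 3 of them passed the filter, and 0 changed between -Dox 3d and +Dox by edgeR or DESeq2, with 0 at an unadjusted p under 0.05 in either and a list median of 0.

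Against satellite cells, the background for the list counts that follow is the share of all genes tested, 18.2% higher and 23.9% lower in +Dox and 17.2% higher and 20.4% lower in -Dox 3d. Many of the counts lie near it and are given as descriptions. In the cytoskeleton list, Nes was higher in +Dox (9.0-fold, adjusted p = 0.000135 by edgeR) and in -Dox 3d (48.2-fold, adjusted p = 3.08e-05), as was Dtna, which encodes α-dystrobrevin (6.83-fold, adjusted p = 0.028, and 51-fold, adjusted p = 0.00225). Dmd, Dag1 and the syntrophin gene Sntb2 were lower in both, Dmd by 28.9-fold in +Dox (adjusted p = 1.77e-05) and 2.39-fold in -Dox 3d (adjusted p = 0.0201). That is 2 higher and 3 lower of 9 in each comparison, with medians of -0.90 in +Dox and -0.042 in -Dox 3d. In the denervation list, 4 of 8 were lower in +Dox (median -1.61), namely Ncam1 (10.51-fold, adjusted p = 1.36e-05), Runx1 (9.54-fold, adjusted p = 0.000152), Hdac4 (5.63-fold, adjusted p = 0.0049) and Gadd45a (3.77-fold, adjusted p = 0.00367). None was called higher in +Dox by edgeR or DESeq2, with 1 higher at an unadjusted p under 0.05 in each. By edgeR that gene was Myog, which had an adjusted p of 0.0153 but, at 1.69-fold, fell short of 2-fold. In -Dox 3d (median 0.19), Scn4a (152-fold, adjusted p = 0.00725) and Myog (71.4-fold, adjusted p = 3.73e-06) were higher than in satellite cells and Runx1 was lower (2.40-fold, adjusted p = 0.0283).

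In the basal lamina list, 3 of 11 were higher and 5 lower in +Dox than in satellite cells (median -1.54), and 2 were higher and 3 lower in -Dox 3d (median -0.11). The collagen gene Col4a5 was higher in both (26-fold in +Dox, adjusted p = 3.85e-05, and 27.7-fold in -Dox 3d, adjusted p = 6.96e-05, by edgeR), as was the nidogen gene Nid2 (5.99-fold, adjusted p = 0.000955, and 7.50-fold, adjusted p = 0.000879). The laminin genes Lamb2 (7.12-fold, adjusted p = 0.000279, and 11.9-fold, adjusted p = 0.00032) and Lama4 (19.0-fold, adjusted p = 0.00605, and 18-fold, adjusted p = 0.0169) were lower in both. In the ErbB list 1 of 6 was higher and 1 lower in +Dox (median 0.18), and 2 were higher and 2 lower in -Dox 3d (median -0.18). Erbb3, a neuregulin receptor gene, was 25.6-fold higher in -Dox 3d (adjusted p = 0.00628 by edgeR). Among MuSK partners, 2 of 16 were higher and 3 lower in +Dox (median -0.27), and 2 were higher and 2 lower in -Dox 3d (median -0.30). Of the glycosylation enzymes, 1 of 5 was lower in +Dox (Gfpt1, 2.82-fold, adjusted p = 0.00621 by edgeR), with a list median of 0.87. There 0 were called higher by edgeR, while 2 were higher at an unadjusted p under 0.05 and DESeq2 called 1 higher. In -Dox 3d 0 were called by edgeR (2 higher at an unadjusted p under 0.05, and 2 higher by DESeq2), with a list median of 0.99. Of the neuronal subunits 0 of 3 were called in either comparison by edgeR or DESeq2 (in +Dox 1 was lower at an unadjusted p under 0.05 by edgeR and 2 by DESeq2, in -Dox 3d 0 by either), with list medians of -0.33 and -6.57. The latter is the value of Chrna7 (SE 3.80), at 0 in -Dox 3d against a mean of 11.4 normalized counts in satellite cells. It therefore rests on few reads and does not give the size of a difference. DESeq2 moved some of these counts by over 1.5 times: in -Dox 3d it called 4 MuSK partners higher, 5 basal lamina genes lower and 2 denervation genes lower than in satellite cells, and in +Dox it called 2 ErbB genes higher.

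Open chromatin at the start sites was compared through the ATAC-seq peaks, of which there is 1 merged list per condition, so that these values have no replicate error and no test. The fold is the enrichment of a peak over background in the authors' peak call. Of the 10 genes, 8 had a peak within 1 kb of an annotated start site in +Dox, against 66.9% of 19008 protein-coding genes. At 12 h after doxycycline removal 7 did (65.0% of all genes), at 24 h 8 (68.1%), at 3 days 8 (69.3%), in myotubes 9 (65.5%) and in satellite cells 8 (62.1%). The counts lie near or somewhat above the shares of genes at large, while the genes that lack a peak differ between the lists.

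The Chrng start site had a peak in every iPax7 list. Its fold was 17.4 in +Dox, 10.4 at 12 h, 10.6 at 24 h, 7.21 at 3 days and 22.3 in myotubes. In satellite cells there was none, and the nearest peak lay 7.34 kb away. Of these 5 iPax7 conditions, RNA-seq covered +Dox and 3 days alone. Between them the fold was lower at 3 days, while the Chrng transcript level was higher. Peaks of all 5 iPax7 lists overlapped the window with the E-boxes printed above.

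Musk showed the converse. Its start site had a peak in satellite cells (5.08-fold), where the transcript was highest, and none in +Dox, at 12 h, 24 h or 3 days or in myotubes, where the nearest peak lay 2.81 to 2.86 kb away. Musk transcripts nevertheless rose by 3 days. The Chrne start site had a peak within 1 kb in myotubes, with a fold of 3.68, and in none of the other 5 lists. That peak is weak, with a −log10 q of 4.07, so it was lost when a value of at least 10 was required, and it did not cover the start site itself. RNA-seq did not cover the myotubes, so the Chrne transcript level there was not measured.

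The Chrna1 start site was open in all 6 lists, with folds of 39.4 in +Dox, 27 at 12 h, 38.2 at 24 h, 44.3 at 3 days, 28.2 in myotubes and 8.79 in satellite cells. Chrnb1 had a peak in all 6 as well, from 22.3 in satellite cells to 58.3 in +Dox, although its transcript was highest in satellite cells. Chrnd (4.10 to 22.6), Rapsn (8.06 to 19.7), Lrp4 (3.27 to 8.63) and Agrn (15.6 to 45.0) also had one in all 6, and Dok7 in all but the 12 h list (3.42 to 6.62). At a −log10 q of at least 10, Lrp4 lost its peak at 12 h, Dok7 at 3 days, and Chrnd and Lrp4 in satellite cells, while that of Musk there, at 10.1, was kept. Fold enrichments were scaled within each list, so their order between lists also carries the depth of each.

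**Figure D4:**
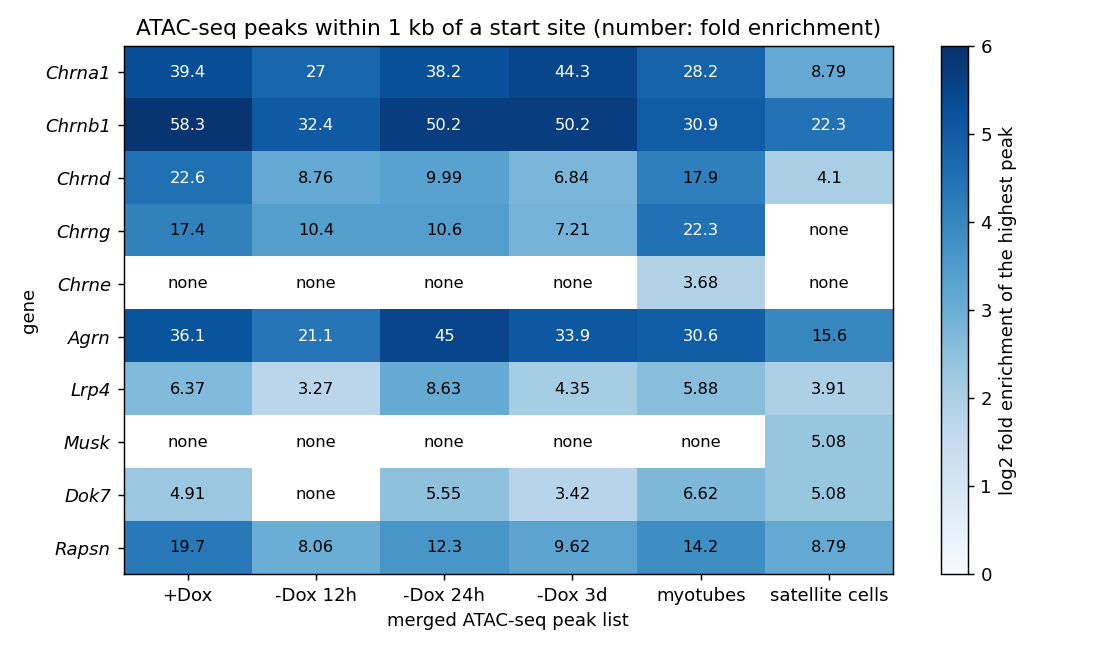
Fold enrichment of the highest ATAC-seq peak within 1 kb of a start site of each gene in the 6 merged peak lists (number in the cell, with the colour on a log2 scale and white cells for no peak). Chrng lacks a peak in satellite cells (none, against 22.3 in myotubes), Musk has one there alone (5.08), and Chrne in myotubes alone (3.68, a peak of −log10 q 4.07 that ends short of the start site).

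Histone marks were read from 1 merged peak list each for +Dox and -Dox 3d. H3K4me3, a mark of promoters, was called within 1 kb of the start of 9 of the 10 genes in +Dox (64.2% of all protein-coding genes) and of 10 in -Dox 3d (69.9%). H3K4me1, found at enhancers and promoter flanks, was called at 9 in +Dox (65.4%) and 10 in -Dox 3d (68.6%). In both marks the gene gained was Chrne, although for H3K4me1 a window of 2.5 kb held a peak at all 10 genes in +Dox already. H3K27Ac, a mark of active elements, was called at 8 in +Dox (51.1%) and 9 in -Dox 3d (48.1%), and the gene gained was Musk, whose nearest H3K27Ac peak in +Dox lay 18.9 kb away. The -Dox 3d peak did not cover the Musk start site itself. The -Dox 3d lists of H3K4me3 (214172 peaks against 94067) and H3K4me1 (243932 against 186990) are longer than those of +Dox, so a gain in them also follows the length of the list. The H3K27Ac list is shorter in -Dox 3d (90168 peaks against 119528).

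The repressive mark H3K27me3 was called near 1 of the 10 start sites, that of Dok7, in both +Dox (22.9% of all genes) and -Dox 3d (20.9%). Neither Chrng nor Musk, at their low level in +Dox, had such a peak within 1 kb, and the nearest in +Dox lay 34.3 kb and 12.2 kb away. Pax7 itself, for which the authors list 2455 binding sites in +Dox, had no site within 1 kb of any of these start sites (1.64% of all genes have one). The nearest lay 93.3 kb from the start of Lrp4, and for the other genes the distance ran from 167 kb at Chrne to 1350 kb at Chrna1.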

How the data were processed

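RNA-seq read counts per gene symbol were deposited for 8 libraries, 1 file each, with no normalization. The submitters' processing notes list Trimmomatic 0.32, TopHat2 2.0, Bowtie2 2.2 and HTSeq 0.6, and the build mm9 (NCBIM37), without giving their order. The authors deposited ATAC-seq peaks from MACS2 2.0.10 on merged replicates, with the fold (a ratio over background) and the −log10 q of each peak, and ChIP-seq peak positions from Qeseq on merged replicates. For Pax7, they kept sites found in at least 2 +Dox samples and in no -Dox sample.

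Here, counts were normalized by TMM and tested in edgeR 4.0.16 (R 4.3.3) with the quasi-likelihood test over all 8 libraries, 1 mean per group, on the 14836 of 24466 genes that passed filterByExpr, with Benjamini-Hochberg adjustment. Normalized counts are counts over the effective library size, put on a common scale by the geometric mean size. The SE was taken as the log2 fold change over the root of F. Libraries were mapped to groups by the labels of their sample. Every pair of libraries in a group differed beyond sampling noise. Reads set aside as not unique, ambiguous or on no gene stayed out of library sizes. Exon lengths and start sites came from GENCODE M1. RNA-seq precision rests on 39010958 to 54674619 reads on genes per library, and ATAC-seq and ChIP-seq depth is unknown. The count scripts were tested on simulated data.

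Alternatives used DESeq2 1.42.0, RLE size factors, no filter, at least 10 CPM in 2 libraries, only the 2 groups compared, a block on replicate number, and leaving out each library. Peak settings were a window of 2.5 kb, the start site itself, a −log10 q of at least 10 for ATAC-seq, and 100 bases of overlap. Named are all 10 genes, up to 4 called genes in each direction per related list and comparison, and the 5 genes most like Chrng, Chrne and Agrn. From the longer lists, the examples printed are a part of those the rule allows. The members, the gene lists and the rules were chosen with earlier results of these data known. C2C12 libraries were not used here. A further list of cell type markers is not reported here.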

Additional observations from a re-analysis of the deposited data

How the results depend on the processing

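Between -Dox 3d and +Dox, 4 members changed in the reported fit and 7 when only those 2 groups were fitted (Chrnd, Dok7 and Lrp4 in addition). The number of all genes changed there was 1134, against 2145 by DESeq2, 1950 with only the 2 groups and 741 with a block on replicate number (the replicate block). Leaving out 1 library gave 3 to 5 members and 488 to 1374 genes for that comparison, 5 to 6 members and 5112 to 6229 genes for +Dox against satellite cells, and 6 to 7 members and 3204 to 5821 genes for -Dox 3d against satellite cells. The lowest counts of genes came without a -Dox 3d library (488 and 508, and 3204 and 3382), where the lone library is assumed to vary like the other groups, and -Dox 3d against +Dox gave 674 without +Dox replicate 1 and 630 without +Dox replicate 2. Same-numbered libraries did not deviate together (Pearson's r from -0.0398 to 0.0272), so the numbers were not taken as pairs. With the replicate block, Rapsn lost its call between -Dox 3d and +Dox (adjusted p = 0.0851 by edgeR), Lrp4 gained one (0.0492), and the other calls of members stayed. Agrn and Dok7, which passed no test, changed sign: Agrn between -Dox 3d and +Dox was 0.016 by DESeq2 and with RLE size factors, and with 1 library left out it ran from -0.24 to 0.22 there (positive without +Dox replicate 2 or -Dox 3d replicate 2), from -0.35 to 0.062 between +Dox and satellite cells (positive without +Dox replicate 3) and from -0.31 to 6.7e-05 between -Dox 3d and satellite cells (positive without -Dox 3d replicate 2). Dok7 between +Dox and satellite cells ran from -0.13 (without satellite cells replicate 3) to 1.225. The Chrng to Chrne log2 ratio difference ran from 4.53 to 6.83, from 2.35 to 4.81 and from 8.34 to 10.49 when 1 library was left out, in the order -Dox 3d against +Dox, +Dox against satellite cells and -Dox 3d against satellite cells. With the start site itself inside a peak, H3K27Ac was called at 4 members in +Dox and 5 in -Dox 3d, and H3K27me3 at 0 in both, and within 2.5 kb H3K27me3 was called at 2 in +Dox. The cause of these shifts was not tested. Low reads limit Chrng, Chrnd and Dok7 in satellite cells and Chrne in all groups.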
